A study of Mus musculus with 6 samples.

Results

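Spi1, Cebpa, Maf, Ikzf1, Hhex, Sall1, Runx1 and Mef2c are 8 transcription factor genes named for their part in the myeloid lineage, which gives rise to macrophages and to microglia, the resident macrophages of the brain. They were chosen by gene symbol, and all 8 were found among the 53746 genes of the count table. Their RNA was measured in whole cerebella of 2-month-old mice. The 3 mice of genotype N153SLSL/LSL, called control mice here, carry on both alleles of Sting1 the constitutively active N153S mutation behind a LoxP-Stop-LoxP (LSL) cassette, which holds it back. The 3 mice of genotype N153SLSL/LSLPcp2-cre, called Pcp2-cre mice here, carry the same alleles and a Pcp2-cre transgene, which removes the cassette in Purkinje cells, the output neurons of the cerebellar cortex. The mutation is thus released in a neuron, while the RNA comes from all cell types of the tissue. Mice 1 and 2 of each genotype were male and mouse 3 was female, and mice were perfused with PBS before the cerebella were taken.

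Several of these factors act in blood cell formation, at different steps. Spi1 encodes PU.1, an ETS family factor that commits progenitors to the myeloid fate and keeps macrophage genes active. Cebpa, a C/EBP family factor, works with PU.1 in myeloid differentiation, Runx1 is needed for the first blood stem cells, and Ikzf1 encodes the zinc finger factor Ikaros of lymphoid and myeloid cells. Hhex is a homeobox factor of blood and endothelial progenitors. Sall1, a zinc finger factor, sets microglia apart from other macrophages, and Maf (c-Maf) and Mef2c are found in microglia and in neurons.

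Total counts were between 6733178 and 10178218 per mouse, so that 3 counts, taken as the limit of detection, came to 0.297 to 0.447 CPM, the counts scaled to library size with TMM factors. This limit covers counting error only. Sting1 gave 186, 183 and 264 counts in control animals 1, 2 and 3, against 337, 296 and 240 with Pcp2-cre, and it was higher in Pcp2-cre mice (edgeR adjusted p = 3.59e-04), while Xist and the Y chromosome genes followed the sex labels. The libraries differed in choroid plexus RNA. The 6 choroid plexus markers summed to between 17.1 and 1209 CPM in control and between 8.43 and 72.5 CPM in Pcp2-cre mice. Control mice 1 and 2 held most of it, with 645 and 1027 CPM of Ttr against at most 61.4 CPM in the other 4 mice. With control mouse 3 as the only control, a fit tried after the data were seen, 3 of the factors were called upregulated in place of 5. These were Spi1, Cebpa and Sall1, while Ikzf1 (edgeR adjusted p = 0.0530) and Hhex (0.419) were not called. That lone mouse is assumed to vary like the Pcp2-cre mice. A fit of all 6 mice with a term for choroid plexus markers was also made. Its log2 fold changes were 1.80 (Spi1), 1.16 (Cebpa), 1.18 (Ikzf1), 0.68 (Sall1) and 1.38 (Hhex), and of these Hhex alone was not called. Since control mice 1 and 2 held most of this RNA, the term is in part tied to genotype. The part of choroid plexus RNA in the results was not tested beyond these fits.

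Promoter sequences from RefSeq (build GRCm38.p6) were found for 6 of the 8 genes, as 12 windows from 250 bases before to 50 bases after a start, each of which matched GRCm39 at 1 place. They are shown because several of these factors are known to bind each other's genes, and 6 motifs were searched in them on both strands. The PU.1 core GAGGAA was in 3 of the 12 windows, those of Runx1 and Mef2c, and in 28.3% of all 32851 promoter windows of the same length. The RUNX core TGTGGT was in 1 window, of Runx1 (16.8% of all windows), and the MAF motif TGCTGA in 1, of Mef2c (19.5%). The C/EBP motif TTGCNNAA (10.8% of all windows), the Ikaros core TGGGAA (25.6%) and the MEF2 motif (3.69%) were in none of the 12. In the windows of Cebpa, Ikzf1, Hhex and Sall1 none of the 6 motifs was found, which says only that these letters are not there. The windows below are written 5′ to 3′ on the strand of the gene, with motif matches in capitals. They show the 2 starts of Runx1, on the minus strand at chr16:92622913-92623212 (the distal promoter) and chr16:92494168-92494467 (the proximal promoter), the first start of Mef2c, on the plus strand at chr13:83651903-83652202, and Cebpa, on the plus strand at chr7:34818468-34818767, as a window with no match (GRCm39).
Runx1, distal: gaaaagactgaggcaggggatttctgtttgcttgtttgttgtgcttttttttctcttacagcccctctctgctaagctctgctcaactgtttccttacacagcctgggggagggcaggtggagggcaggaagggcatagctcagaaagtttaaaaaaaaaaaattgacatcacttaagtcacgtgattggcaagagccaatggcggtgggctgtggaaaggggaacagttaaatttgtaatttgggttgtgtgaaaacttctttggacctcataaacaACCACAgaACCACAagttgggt
Runx1, proximal: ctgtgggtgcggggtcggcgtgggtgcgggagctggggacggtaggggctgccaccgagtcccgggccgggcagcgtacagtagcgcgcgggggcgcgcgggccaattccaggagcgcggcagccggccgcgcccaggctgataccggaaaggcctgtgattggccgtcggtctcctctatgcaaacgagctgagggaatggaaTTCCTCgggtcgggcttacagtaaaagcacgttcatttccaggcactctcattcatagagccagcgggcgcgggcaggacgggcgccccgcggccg
Mef2c, first start: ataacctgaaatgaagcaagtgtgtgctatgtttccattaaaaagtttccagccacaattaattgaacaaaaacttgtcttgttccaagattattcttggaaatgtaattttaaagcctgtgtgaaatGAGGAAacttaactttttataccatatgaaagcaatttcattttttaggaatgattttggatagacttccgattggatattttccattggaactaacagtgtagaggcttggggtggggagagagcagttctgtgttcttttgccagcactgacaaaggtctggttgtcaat
Cebpa: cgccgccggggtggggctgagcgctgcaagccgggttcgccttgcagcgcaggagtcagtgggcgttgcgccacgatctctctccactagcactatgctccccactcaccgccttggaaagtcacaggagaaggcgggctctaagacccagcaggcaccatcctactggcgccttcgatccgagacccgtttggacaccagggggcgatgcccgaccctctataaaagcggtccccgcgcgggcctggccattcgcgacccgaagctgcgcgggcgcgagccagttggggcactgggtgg
In the distal Runx1 window the capitals mark 2 RUNX cores, read on the opposite strand, and in the proximal one a PU.1 core, also on the opposite strand. In Mef2c they mark a PU.1 core on the strand of the gene.

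In Pcp2-cre cerebella 5 of the 8 genes, Spi1, Ikzf1, Hhex, Cebpa and Sall1, rose above control, by 1.83-fold to 3.71-fold. Maf did not pass the test, Mef2c was lower by a small amount, and Runx1 had too few counts to be tested in the same fit. Calls needed an adjusted p up to 0.05 together with a log2 fold change of 0.5 or more in size. The p-values came from the quasi-likelihood test of edgeR, adjusted by the Benjamini-Hochberg method over the 16961 genes that passed a filter on low counts, and are given below as edgeR adjusted p. By that rule 1.37% of all tested genes were called upregulated and 1.79% downregulated. Hhex, Spi1 and Ikzf1 passed the filter through the Pcp2-cre libraries, since 0, 1 and 1 of the 3 control mice lay above its level of 1.27 CPM, so their count says less than that of Cebpa and Sall1, which passed in all 6 mice. In whole tissue a larger number of cells of a type and more RNA per cell cannot be told apart.

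**Figure D1:**
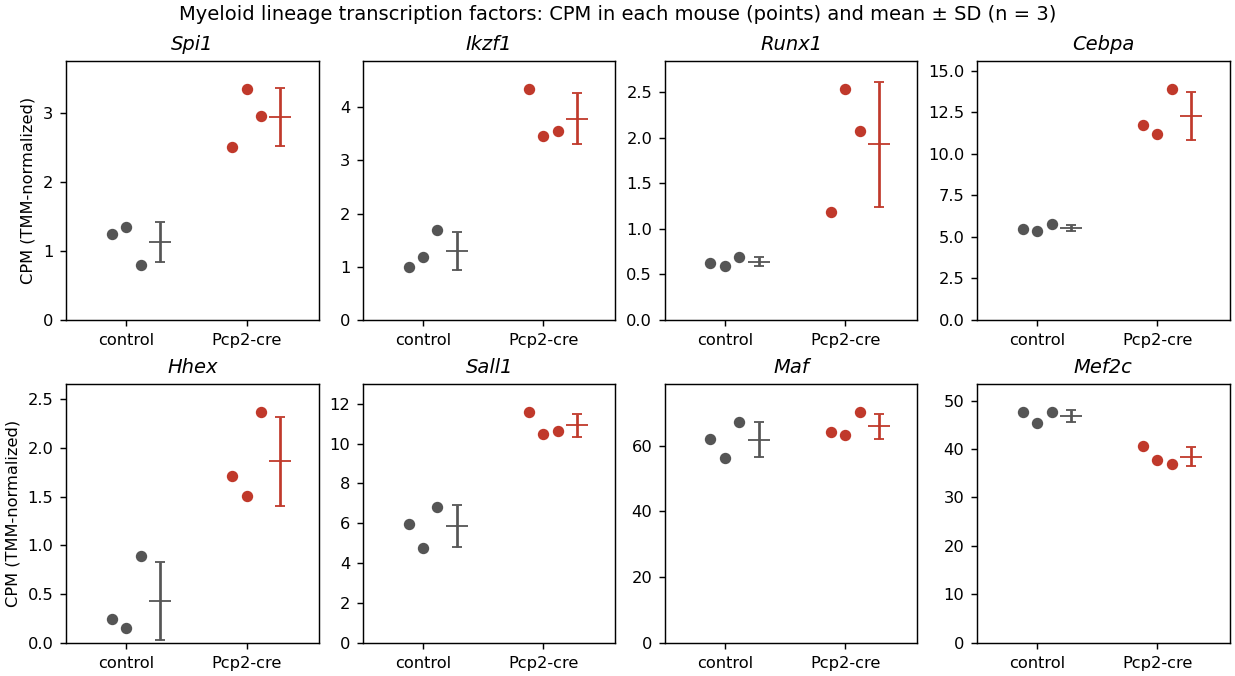
CPM of the 8 genes in each mouse (points, 3 control in grey and 3 Pcp2-cre in red) with the mean and SD beside them, each panel on its own linear axis from 0. The Pcp2-cre mice lie above the control mice in 6 panels, overlap with them for Maf and lie below them for Mef2c.

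Spi1 (ENSMUSG00000002111) lies on chromosome 2 from 90912562 to 90946101, in GRCm39 as for all genes below. It gave 10, 9 and 8 counts in control animals 1, 2 and 3, against 19, 29 and 20 with Pcp2-cre. This came to 1.25, 1.34 and 0.793 CPM in control and 2.50, 3.35 and 2.96 CPM in Pcp2-cre mice. The lowest Pcp2-cre mouse lay well above the highest control, and control mouse 3, the deepest library, had the fewest counts. Spi1 rose 2.68-fold, with a 95% interval from 1.74 to 4.13 (log2 fold change 1.42, standard error 0.298, edgeR adjusted p = 0.00305). With the 4 male mice alone the log2 fold change was 1.18, and the edgeR adjusted p of 0.0501 missed the threshold.

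Ikzf1 (ENSMUSG00000018654, chromosome 11, 11634980 to 11723186) gave 8, 8 and 17 counts in control animals 1 to 3, against 33, 30 and 24 with Pcp2-cre. The CPM were 0.998, 1.19 and 1.68 in control and 4.35, 3.46 and 3.55 in Pcp2-cre mice, without overlap. The rise of 2.83-fold (95% interval 1.92 to 4.19, log2 fold change 1.50, standard error 0.270) came with an edgeR adjusted p of 7.13e-04. Ikzf1 was not called in limma on the deposited FPKM values (adjusted p = 0.130 with 0.1 added before taking log2).

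Runx1 (ENSMUSG00000022952, chromosome 16, 92398354 to 92623037, minus strand) gave 5, 4 and 7 counts in control and 9, 22 and 14 counts in Pcp2-cre mice 1, 2 and 3. In CPM the control mice lay close together, at 0.624, 0.596 and 0.694, and the Pcp2-cre mice ranged widely, at 1.19, 2.54 and 2.07, with all 3 above all controls. Of the 6 mice 2, both Pcp2-cre, lay above the level of the filter, which asks for 3 mice. In a fit over all 30470 genes with at least 1 count, where 0.955% of genes were called upregulated, its log2 fold change was 1.56 (95% interval 0.80 to 2.33, edgeR adjusted p = 0.00196). When 1 mouse was left out Runx1 passed the filter in 4 of 6 fits and was called in 3 of them, with an edgeR adjusted p of 0.0584 without control mouse 1. Runx1 was not called with control mouse 3 as the only control (log2 fold change 1.47, edgeR adjusted p = 0.178), nor in limma on log2(FPKM + 1) (0.22, adjusted p = 0.316) or log2(FPKM + 0.1) (0.84, adjusted p = 0.306).

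Cebpa (ENSMUSG00000034957, chromosome 7, 34818718 to 34821353) was measured with more counts, 44, 36 and 58 in control mice and 89, 97 and 94 in Pcp2-cre mice 1 to 3. Its CPM were 5.49, 5.36 and 5.75 in control and 11.7, 11.2 and 13.9 in Pcp2-cre mice, so that the controls differed little among themselves and every Pcp2-cre mouse lay far above them. The change of 2.20-fold (95% interval 1.77 to 2.73, log2 fold change 1.13, standard error 0.151) had the smallest p of the 7 tested members (edgeR adjusted p = 1.96e-05). The call was kept in all 18 other settings tried, with log2 fold changes from 0.67 to 1.20.

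Hhex (ENSMUSG00000024986, chromosome 19, 37423258 to 37429179) was read with 2, 1 and 9 counts in control mice 1, 2 and 3, of which the first 2 lie under the limit of detection, and 13, 13 and 16 counts in Pcp2-cre mice. The CPM were 0.249, 0.149 and 0.892 in control and 1.71, 1.50 and 2.37 in Pcp2-cre mice. The Pcp2-cre mice lay above all controls, and control mouse 3 stood apart from the other controls. The log2 fold change, 1.89 with a standard error of 0.461, had a wide 95% interval, from 0.93 to 2.85 (edgeR adjusted p = 0.0108). The call was lost with DESeq2 (adjusted p = 0.0562), with a term for choroid plexus markers (0.163), without control mouse 1 (0.0818) and without Pcp2-cre mouse 3 (0.0824), and without control mouse 3 the log2 fold change was 3.07.

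Sall1 (ENSMUSG00000031665, chromosome 8, 89753863 to 89770823, minus strand), the factor tied to microglial identity, had 48, 32 and 69 counts in control and 88, 91 and 72 counts in Pcp2-cre mice 1 to 3. The CPM were 5.99, 4.76 and 6.84 in control and 11.6, 10.5 and 10.7 in Pcp2-cre mice, without overlap. It rose 1.83-fold (95% interval 1.46 to 2.29, log2 fold change 0.87, standard error 0.157, edgeR adjusted p = 7.25e-04). The 95% intervals of the 5 upregulated genes overlapped one another, so no order among their fold changes is given.

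Maf (ENSMUSG00000055435, chromosome 8, 116409632 to 116434579, minus strand) had 498, 378 and 677 counts in control and 486, 549 and 475 counts in Pcp2-cre mice 1 to 3. The CPM were 62.1, 56.3 and 67.1 in control and 64.0, 63.4 and 70.3 in Pcp2-cre mice, and the groups overlapped. The log2 fold change was 0.08 (95% interval -0.06 to 0.21, edgeR adjusted p = 0.610), so a change as large as that of Cebpa or Sall1 lay outside its interval.

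Mef2c (ENSMUSG00000005583, chromosome 13, 83652064 to 83815555) had 382, 305 and 480 counts in control and 308, 327 and 249 counts in Pcp2-cre mice 1 to 3. Its CPM were 47.7, 45.4 and 47.6 in control and 40.6, 37.7 and 36.8 in Pcp2-cre mice, with every Pcp2-cre mouse below every control. The log2 fold change was -0.29 (standard error 0.0686, 95% interval -0.43 to -0.15, edgeR adjusted p = 0.00869), which passed the threshold on p and not that on size. On p alone, 4.75% of tested genes were lower and 2.99% were higher. Mef2c missed the threshold on p with DESeq2 (adjusted p = 0.0608), in males alone, without Pcp2-cre mouse 2, with control mouse 3 as the only control and in both limma fits on FPKM, and its adjusted p ran from 0.00127 to 0.453 over all settings.

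Every Pcp2-cre mouse lay above every control in 5 of the 7 tested members, which 10.8% of all tested genes showed, and below every control in Mef2c, which 11.4% showed. Of the 5, Spi1, Ikzf1 and Hhex had passed the filter through the Pcp2-cre libraries. Gencode M39 places 51 exon bases of Cebpa, 440 and 117 of Maf, 678 of Sall1 and 106 of Runx1 under exons of genes of the opposite strand, and with the use of strand not given in the sources used here, reads of those stretches cannot be assigned. Spi1, Ikzf1, Hhex and Mef2c overlapped no exon of another gene.

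**Figure D2:**
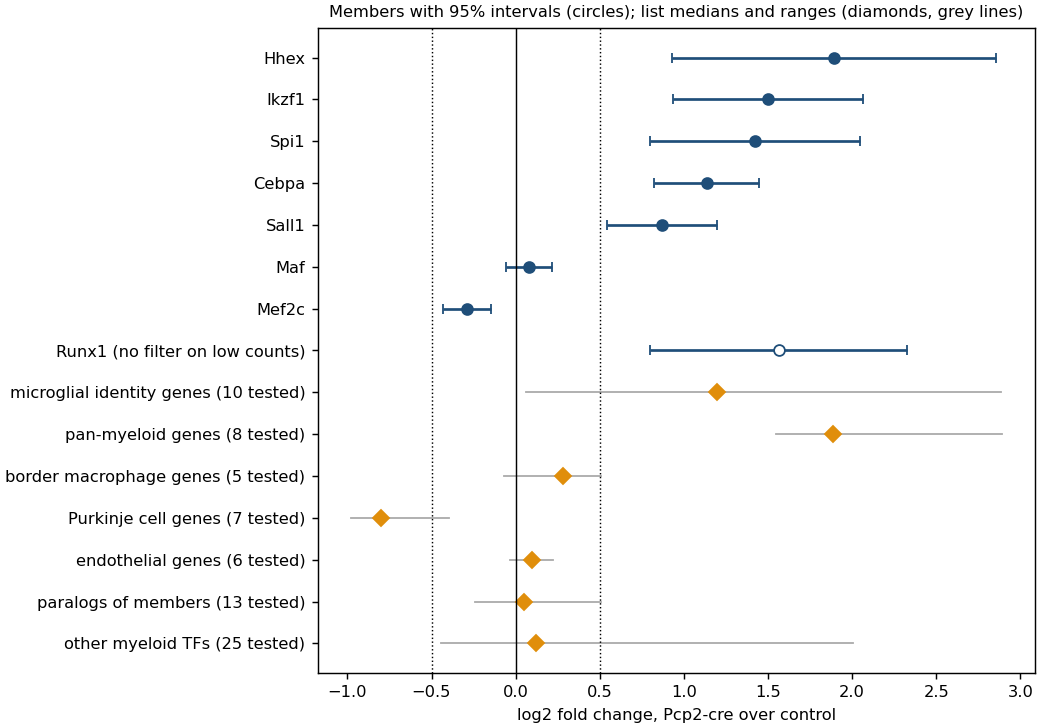
log2 fold changes of Pcp2-cre over control with 95% intervals for the members (filled circles; open circle, Runx1 in the fit with no filter on low counts), above the median (diamond) and range (grey line) of marker and gene lists; dotted lines mark the size threshold of 0.5. The 5 called genes lie to the right with the microglial lists (medians 1.20 and 1.89), Maf lies near 0, and Mef2c lies between 0 and the Purkinje cell list (median -0.80).

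Markers of the cell types that could carry these RNAs were compared as lists. Calls of upregulation were made for 7 of 10 microglial identity genes, Csf1r among them. Their median log2 fold change was 1.20, against 0.00 over all tested genes, and they summed to between 111.2 and 114.1 CPM in control and between 257.9 and 276.5 CPM in Pcp2-cre mice. The other 3, P2ry12, Tmem119 and Siglech, did not pass (log2 fold changes 0.28, 0.06 and 0.15). The 8 pan-myeloid genes, Aif1, Ptprc, Itgam, Laptm5, Tyrobp, Fcer1g, C1qa and Ctss, were called upregulated. Aif1 and Itgam passed the filter through the Pcp2-cre libraries, with 0 and 1 of the 3 control mice above its level, so the other 6 carry this count. The list had a median of 1.89 and summed levels of 44.5 to 46.0 CPM in control and 163.0 to 192.8 CPM in Pcp2-cre mice.

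Border macrophage markers were present in both genotypes, and those of monocytes, neutrophils, T, NK and B cells were low. None of the 5 tested genes of 6 border macrophage markers was called, and their summed level was 11.9 to 14.6 CPM in control and 12.6 to 17.4 CPM in Pcp2-cre mice. Monocyte markers summed to 0.447 to 1.87 CPM in control and 0.888 to 1.85 CPM in Pcp2-cre mice, and neutrophil markers to 0.744 to 2.25 and 0.740 to 3.95 CPM. T and NK cell markers summed to 1.34 to 1.88 CPM in control and 1.84 to 2.19 CPM in Pcp2-cre mice, and B cell markers to 0.298 to 0.892 and 0.790 to 1.04 CPM. Ly6g, Cd3g and Nkg7 had 0 counts in all 6 mice, and of these 20 markers only Trac passed the filter (log2 fold change 0.34, not called).

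Among the neural and vascular lists that bear on Maf and Mef2c, 6 of 7 Purkinje cell markers were called downregulated, and their summed level was 6067 to 6641 CPM in control and 3241 to 3574 CPM in Pcp2-cre mice. None of 5 granule cell, 5 molecular layer interneuron and 6 endothelial markers was called, with median log2 fold changes of 0.05, -0.03 and 0.10. Of 7 astrocyte markers 2 were upregulated, Gfap and Aqp4, and none of 6 oligodendrocyte markers was (list medians -0.06 and 0.22). The part of Purkinje cell RNA in the lower Mef2c level was not tested.

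Each factor was then set against the microglial identity genes of the same mouse, as log2 CPM minus their mean log2 CPM, to see whether it moved more or less than they did. That mean rose by 1.14, from 2.65, 2.69 and 2.75 in control mice to 3.85, 3.74 and 3.92 in Pcp2-cre mice 1, 2 and 3. For Cebpa the difference was smaller than the spread between mice. Its relative level was -0.18, -0.25 and -0.21 in control mice and -0.29, -0.25 and -0.12 in Pcp2-cre mice, a difference of -0.01. The 10 reference genes did not move alike, with log2 fold changes from 0.06 (Tmem119) to 2.89 (Fcrls). A difference near 0 is therefore a match to their average and not to each of them.

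For Spi1, Ikzf1, Runx1 and Sall1 the relative differences were 0.22, 0.39, 0.31 and -0.24, and the groups overlapped in all 4 (two-sided exact permutation tests, p = 0.60, 0.20, 0.50 and 0.30). Hhex had the largest positive difference, 1.11, again with overlap, and control mouse 2 with its 1 count had the lowest value. Relative to these genes, all Pcp2-cre mice were lower than all controls in Maf and Mef2c, with differences of -1.05 and -1.43. The exact permutation p was 0.10 for each, the smallest that 3 mice against 3 allow, and 0.40 after Benjamini-Hochberg adjustment over the 8 genes. The reference mean itself rose by 1.14, against log2 fold changes of 0.08 for Maf and -0.29 for Mef2c. Both genes are also found in neurons, so these differences do not give their level within microglia.

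The choice of reference mattered. Set against the pan-myeloid genes, whose mean rose by 1.98, the differences were -0.62 for Spi1, -0.45 for Ikzf1, -0.53 for Runx1, -0.85 for Cebpa and -1.08 for Sall1, and Hhex alone stayed positive at 0.26. A change of reference shifts every gene by the same amount. The new signs thus follow from the differences given above and say nothing further about any 1 gene. The directions for Spi1, Ikzf1 and Runx1 are therefore not fixed by these data.

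**Figure D3:**
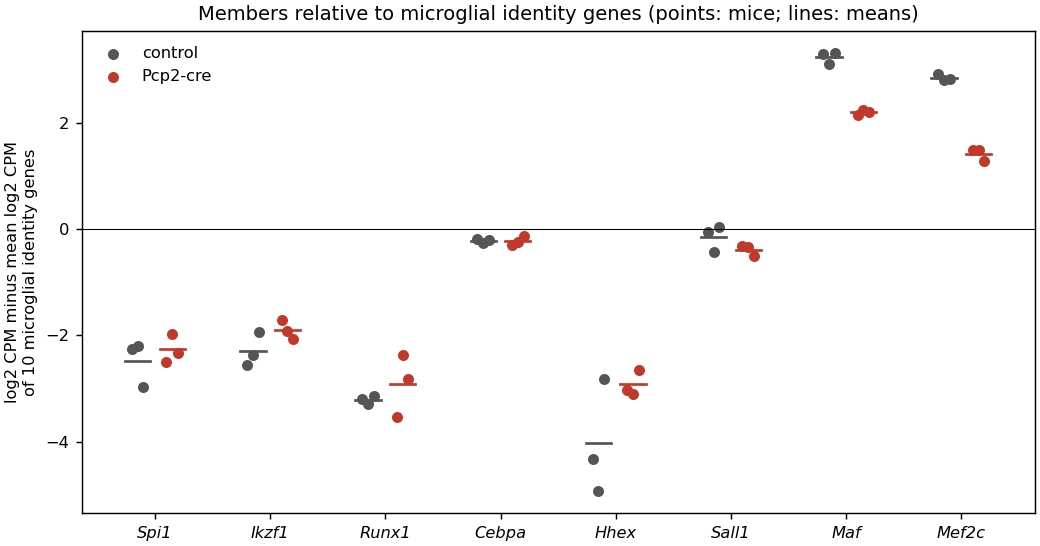
Log2 CPM of each gene minus the mean log2 CPM of 10 microglial identity genes in the same mouse (points, with the mean of each genotype as a line; control in grey, Pcp2-cre in red). On this relative scale the genotypes overlap in 6 of the 8 genes, and Maf and Mef2c are lower in all Pcp2-cre mice. The reference mean itself is higher in all of those mice.

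The deposited FPKM values, which are scaled to gene length, allow levels to be compared between genes. In control mice Maf (11.3 ± 0.791 FPKM, SD, n = 3 mice) and Mef2c (9.05 ± 0.911 FPKM) were the most abundant of the 8, followed by Cebpa (1.84 ± 0.225 FPKM) and Sall1 (0.913 ± 0.0581 FPKM), and none of these neighbours overlapped. Spi1 (0.348 ± 0.0938 FPKM), Ikzf1 (0.269 ± 0.0954 FPKM), Hhex (0.172 ± 0.194 FPKM) and Runx1 (0.129 ± 0.0369 FPKM) followed, and each overlapped with the next. The pair that did not rise was thus also the pair with the highest level per length.

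In Pcp2-cre mice Maf (12.2 ± 0.272 FPKM) and Mef2c (7.94 ± 0.566 FPKM) still led, Cebpa had 3.53 ± 0.278 FPKM, and Spi1, at 1.40 ± 0.348 FPKM, came to overlap with Sall1, at 1.64 ± 0.0840 FPKM (SD, n = 3 mice). Hhex (0.648 ± 0.245 FPKM) and Ikzf1 (0.636 ± 0.131 FPKM) overlapped, and Runx1 had the lowest mean (0.315 ± 0.110 FPKM), which overlapped with Hhex, since Pcp2-cre mouse 2 had 0.367 FPKM of Hhex and 0.442 FPKM of Runx1. Every Pcp2-cre mouse lay above every control in Cebpa, Sall1, Spi1, Ikzf1 and Runx1. For these a two-sided exact permutation test gave p = 0.10, the smallest it can give, and 0.16 after Benjamini-Hochberg adjustment over the 8 genes. How many of all genes separate in this way in FPKM was not counted, so the separation is given as a description only.

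The tables did not give the same sizes. The ratio of mean FPKM was 4.02 for Spi1, against 2.68-fold from the counts, and 0.877 for Mef2c, against 0.818-fold. In FPKM the genotypes overlapped for Mef2c and for Hhex, whose control values were 0.121, 0.00787 and 0.385 FPKM. The cause was not tested.

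**Figure D4:**
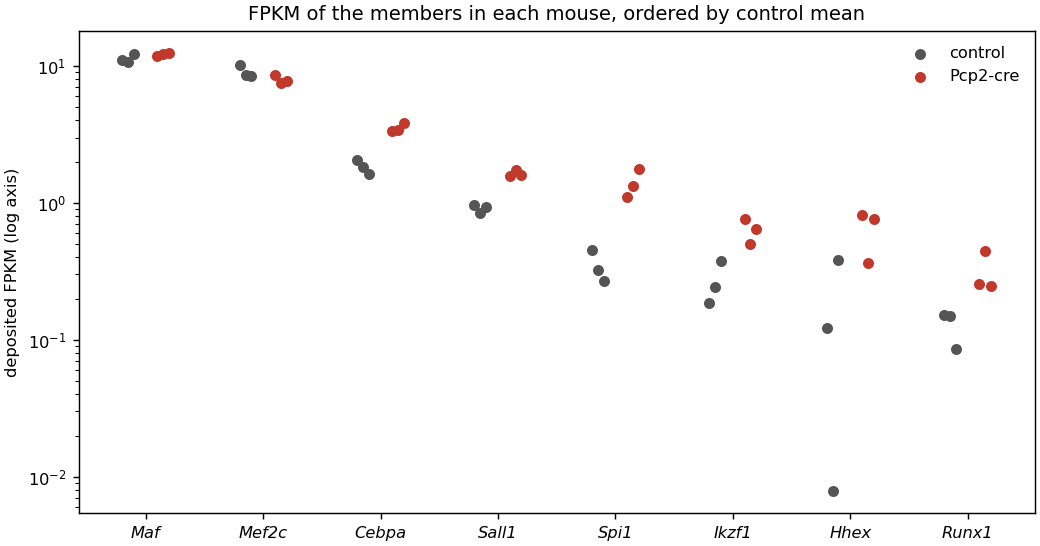
Deposited FPKM of the 8 genes in each mouse on a log axis, ordered by the control mean (control in grey, Pcp2-cre in red). Maf and Mef2c stand above the other genes in both genotypes, and Hhex has the widest spread among control mice, from 0.00787 to 0.385 FPKM.

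None of the tested relatives of these factors that are described here was called. Of 24 paralogs or partners 13 were tested, and 0 were called by edgeR or by DESeq2, with a median log2 fold change of 0.05. Over all tested genes edgeR called 1.37% upregulated and 1.79% downregulated, so 0 calls among 13 genes is near that share. At an unadjusted edgeR p of up to 0.05 there were 2, Cebpg (log2 fold change 0.14) and Cbfb, the partner of all Runx factors (-0.24, edgeR adjusted p = 0.166). Cebpg, with an unadjusted edgeR p of 0.0446, held place 2912 of the 16961 tested genes. Many genes thus reach this level, and the 2 are given as a description only. The most abundant of the tested relatives were Mef2d (0.05), Mef2a (0.06), Mafg (0.00) and Sall2 (0.06). The C/EBP genes Cebpb and Cebpd, which respond to inflammation in many tissues, had log2 fold changes of 0.04 and 0.08.

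**Figure D5:**
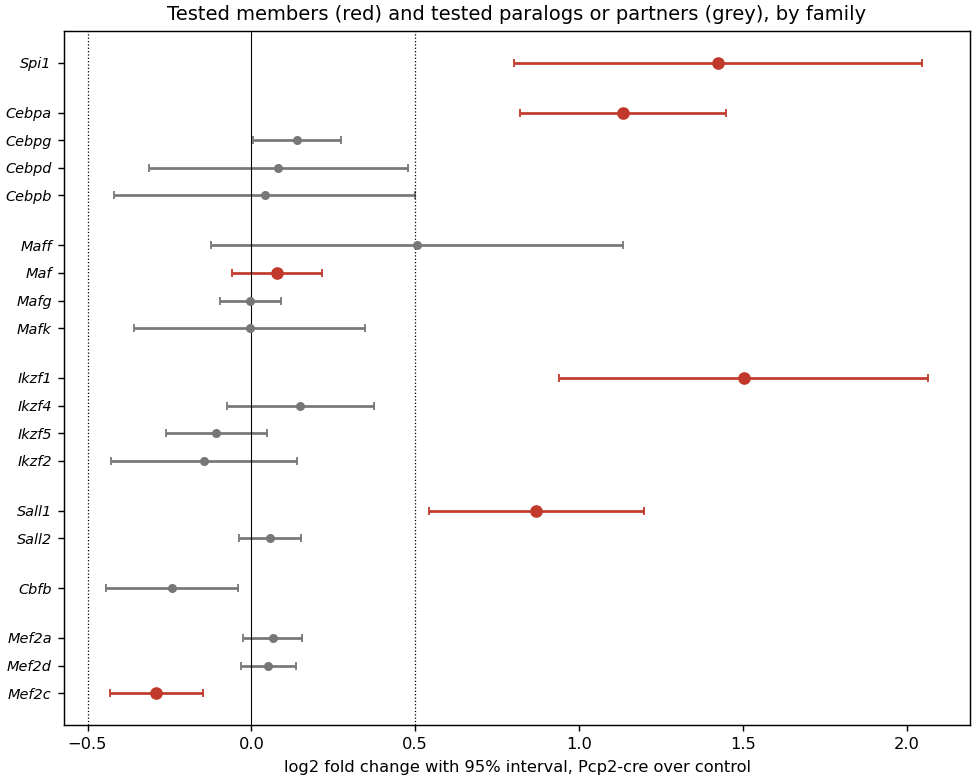
log2 fold changes with 95% intervals of the tested members (red) and their tested paralogs or partners (grey), grouped by family, with dotted lines at the size threshold of 0.5. The intervals of Spi1, Cebpa, Ikzf1 and Sall1 lie beyond 0.5, and those of the paralogs and partners shown reach below it. Hhex, whose interval of 0.93 to 2.85 also lies beyond 0.5, has no paralog in the list and is not drawn.

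Of 33 other transcription factors of the myeloid lineage and macrophages, 25 were tested, 2 of them were upregulated and none was downregulated (median log2 fold change 0.12). Irf8, the partner of PU.1 in macrophage and microglia development, had 12, 16 and 11 counts in control and 60, 38 and 48 counts in Pcp2-cre mice. It rose from 1.66 ± 0.661 CPM to a mean of 6.46 ± 1.84 CPM (SD over 3 mice, log2 fold change 2.00, standard error 0.285, edgeR adjusted p = 4.72e-05). Arid5a rose from 16.1 ± 2.14 to 23.4 ± 0.987 CPM (log2 fold change 0.54). Of the most abundant genes of this list, Hif1a (0.04), Bhlhe40 (-0.05) and Zeb2 (0.00) did not pass, and Id2, an inhibitor of basic helix-loop-helix factors, was lower in every Pcp2-cre mouse by less than the size threshold (-0.44, edgeR adjusted p = 3.43e-07).

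Receptors and ligands that act with these factors were read last. Of 9 genes 4 were called upregulated and 1 downregulated. Csf1r, the receptor that microglia need to survive and a known PU.1 target, rose from 32.4 ± 3.06 CPM to 63.1 ± 3.01 CPM (SD over 3 mice, log2 fold change 0.96, edgeR adjusted p = 6.79e-09). Of its ligands, Csf1 had a log2 fold change of 0.48, just under the size threshold, with an edgeR adjusted p of 0.00143, and Il34 did not pass (-0.12). Csf3r (1.86), Csf2rb (1.93) and Tgfb1 (0.76), the last a cytokine that microglia depend on, were called upregulated. Csf2ra (0.28) passed the threshold on p (edgeR adjusted p = 0.011) and not that on size, and Kit (-0.03) passed neither. The control mice had 0, 8 and 3 counts of Csf2rb, none above the level of the filter, which the gene passed through the Pcp2-cre libraries, so that its call says little and the size of its change is uncertain. Flt3, known as a receptor of early blood progenitors, was the gene called downregulated, from 52.8 ± 4.17 to 32.2 ± 2.74 CPM (log2 fold change -0.70). In control mice its level was above that of Csf1r, and the Purkinje cell list had a median of -0.80. Which cells of the cerebellum carry Flt3 RNA was not tested, so its fall is not read as a change in blood progenitors.

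For each called factor the 3 genes with the most similar profile over the 6 mice were found, by the root mean square distance between log2 CPM values centred on each gene's mean. Cd33, Rnase4 and Ctsd lay nearest to Cebpa, at distances of 0.107, 0.110 and 0.110. Aspg, Apobec1 and Hk3 lay nearest to Spi1 (0.131, 0.167 and 0.203), and Tlr1, Wdfy4 and Syk to Ikzf1 (0.152, 0.204 and 0.216). Hmox1, Gbp4 and Gm37824 lay nearest to Sall1 (0.0499, 0.101 and 0.111), and Adgre1, Ccl9 and Itgam to Hhex at larger distances (0.362, 0.403 and 0.439). The measure takes in differences between genotypes as well as among mice, and it comes with no test.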

How the data were processed

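Poly A RNA of cerebella from 3 control and 3 Pcp2-cre mice was sequenced as paired reads. The authors trimmed and aligned the reads (STAR, GRCm39) and counted Gencode features with featureCounts and StringTie. Versions, Gencode release and the handling of strand and of multi-mapped reads are not given in the sources used here. The authors deposited raw counts per gene and, in another table, FPKM values. Groups and mouse numbers came from the sample titles, to which columns were matched by genotype and number.

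The main fit was made in R 4.3.3 with edgeR 4.0.16, using filterByExpr, TMM and the quasi-likelihood test, with Benjamini-Hochberg adjustment over all 16961 tested genes and the study's thresholds of 0.05 and 0.5. Log2 CPM values used a prior count of 0.5. Standard errors and 95% intervals were derived from the F statistic. FPKM values were compared with exact permutation tests and, after adding 1 or 0.1, with limma 3.58.1 on the log2 scale, over genes with a mean of at least 0.1 FPKM. Other alternatives changed the test (DESeq2 1.42.0, edgeR's likelihood ratio test), the size factors, the filter (none, or 10 counts in each mouse), the model (mouse number, sex or choroid plexus markers as a term), the mice (males, each mouse left out) or the size threshold. Coordinates came from Gencode M39 and promoters from RefSeq. The scripts were tested on simulated data.

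The members and lists were chosen with earlier results of these data known. All 8 members are described. Of each list the called genes and, as examples, up to 4 of the most abundant are named. Cebpb, Cebpd, Cebpg and Cbfb, the 3 uncalled microglial genes, Ly6g, Cd3g, Nkg7, Trac, Sall3, Egr2, Runx3 and Id2 were named after their values were seen. Of the paralogs, 1 gene is not reported here.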

Additional observations from a re-analysis of the deposited data

How the results depend on the processing

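The number of upregulated members was 5 in the reported fit. It was 2 of the 4 members testable with at least 10 counts in every mouse, where Spi1, Ikzf1 and Hhex dropped out, 2 in limma on log2(FPKM + 1), 3 with 0.1 in place of 1 and 3 with control mouse 3 as the only control. Leaving out each mouse in turn gave 4 to 6. No member was called downregulated, except Mef2c (1) with no size threshold. The calls lost were Spi1 in males alone (log2 fold change 1.18), Ikzf1 in limma on log2(FPKM + 1) (0.37), on log2(FPKM + 0.1) (1.01) and with control mouse 3 as the only control (1.16), Sall1 on log2(FPKM + 1) (0.46), and Hhex with DESeq2 (2.00), the choroid plexus score (1.38), both FPKM scales (0.49 and 1.66), control mouse 3 as the only control (1.02) and 2 of the fits without a mouse (range over 6 fits 1.57 to 3.07). Maf, which was not called in any setting, turned to -0.031 with control mouse 3 as the only control, and no other tested member changed direction. The causes were not tested. Over all genes, DESeq2 called 150 upregulated against 233, limma on log2(FPKM + 1) called 185 downregulated against 304, and with no size threshold 507 and 805 passed.

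With the replicate number as a block 5 members were called upregulated and 0 downregulated, and the block changed no call of a member. The mouse numbers are not known to pair the animals. Same-numbered mice deviated together across genes with r of 0.0645, 0.0770 and 0.224, and numbers 2 and 3, not 1, matched their own number best.

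Relative to the pan-myeloid genes the differences were -0.62 (Spi1), -0.85 (Cebpa), -1.89 (Maf), -0.45 (Ikzf1), -1.08 (Sall1), -0.53 (Runx1) and -2.27 (Mef2c). From log2(FPKM + 0.1) against the microglial identity genes they were -0.25 (Cebpa), -0.14 (Ikzf1) and -0.31 (Runx1). The other relative differences moved by less than the spread between mice. Depth limits Hhex, Runx1, Spi1 and Ikzf1, which had at most 33 counts in any mouse.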

Other observations

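The difference between genotypes was also read by sex, although each genotype holds 1 female. In log2 CPM the difference of Spi1, Pcp2-cre minus control, was 1.13 in males and 1.82 in females, that of Ikzf1 1.77 and 1.05, that of Hhex 2.70 and 1.35, that of Sall1 1.04 and 0.64 and that of Cebpa 1.07 and 1.27. No p-value is given for the difference between the sexes, since the female side is 1 mouse of each genotype. Both control males are also the mice rich in choroid plexus RNA (645 and 1027 CPM of Ttr), so that sex and choroid plexus RNA cannot be told apart in the controls.

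Of the 19 relatives and other factors described that fell under the filter on low counts, 2 were higher and 1 was lower in all Pcp2-cre mice than in all controls, and 16 overlapped. The 3 were picked for this after their values were seen. How many of all genes under the filter separate in this way was not counted, so these numbers are a description only. Sall3, a paralog of Sall1, had 1, 1 and 3 counts in control and 5, 16 and 7 counts in Pcp2-cre mice 1, 2 and 3. Egr2, a zinc finger factor that many macrophages switch on when stimulated, was at 0 counts in all control mice, and its counts in Pcp2-cre mice 1, 2 and 3 were 2, 5 and 3. Runx3, a paralog of Runx1, had 1 count in each control mouse and 0 in each Pcp2-cre mouse. None of the 3 was tested, and the counts of Runx3 and Egr2 are at or near the limit of detection.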
